A study of Mus musculus with 8 samples.

Results

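The 58 genes described here encode proteins of mitosis and chromosome segregation. They were taken by name from a list of mitosis genes, and all 58 were found among the 47937 gene IDs that were counted. RNA was sequenced from bone marrow-derived dendritic cells (BMDCs), which are grown from mouse bone marrow in GM-CSF (20 ng/ml, for 8 days) and also hold macrophages. Cells of both genotypes were cultured without stimulus or with the bacterial product LPS (20 ng/ml, for 1 day), and 2 libraries per group, 8 in all, were analysed. The 3xGrk-/- cells (genotype Grk 3xKO in the labels) came from adult mice with deletions of 3 G protein-coupled receptor kinases, as Grk3 -/- animals whose Grk2 fl/fl and Grk6 fl/fl alleles were cut by Vav-iCre, and the WT controls carried no Cre. Vav-iCre is active in blood-forming cells, so that every blood cell type in the culture can carry the deletions of Grk2 and Grk6, and Grk3 is deleted throughout the animal. The labels do not say whether the libraries of a group came from separate cultures, and the study's methods describe technical triplicates, a number that differs from the 2 libraries per group analysed here, so that every p-value here measures only the spread between these libraries.

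Cells enter mitosis when cyclin B activates the kinase CDK1. Chromosomes are then condensed, the kinetochores on their centromeres are attached to spindle microtubules, the spindle checkpoint holds the cell until every chromosome is attached, and the anaphase-promoting complex (APC/C) starts the separation of sister chromatids. Most genes of this machinery are transcribed in a burst at the end of the cell cycle and are silent in resting cells, so that their RNA is widely used as a sign of dividing cells. GM-CSF cultures hold dividing precursors, and terminally mature dendritic cells no longer divide.

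The targeted kinases were measured first, in CPM, which are read counts scaled to equal library totals with TMM factors. Grk2 had 319.6 and 320.3 CPM in unstimulated WT, 151 and 146 in unstimulated 3xGrk-/-, 676 and 735 in LPS-stimulated WT and 198 and 183 in LPS-stimulated 3xGrk-/- libraries. Grk6 had 85.2 and 83.2 CPM (WT) and 36.9 and 36.9 CPM (3xGrk-/-) without LPS, and 91.6 and 101 CPM (WT) and 33.9 and 32.5 CPM (3xGrk-/-) with LPS. Grk3 had 337 and 340.0 CPM in WT and 267 and 262 CPM in 3xGrk-/- libraries without LPS, and 459 and 443 CPM and 342 and 334 CPM with LPS. All 3 were lower in 3xGrk-/- than in WT libraries in both stimulations, with log2 fold changes of -1.11 and -1.89 for Grk2, -1.19 and -1.54 for Grk6 and -0.36 and -0.42 for Grk3, without and with LPS. None was at 0, and whether the remaining reads lie outside the deleted exons was not tested. The 13 dendritic cell genes listed were present in every library, with a summed level between 18046 and 29199 CPM. Without LPS their sum in 3xGrk-/- was 62.6% of that in WT, with 6 genes lower, led by H2-Ab1 (-1.67), a chain of MHC class II, and 6 higher, led by Itgam (1.56), the integrin chain CD11b. With LPS 8 were lower and 5 higher.

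Together the 58 genes had 2429 and 2452 CPM in WT and 604 and 584 CPM in 3xGrk-/- libraries without LPS, and 501 and 534 CPM in WT and 390 and 380 CPM in 3xGrk-/- libraries with LPS. The unstimulated WT libraries therefore stood far above the other 6, and no group overlapped another. The summed level of 3xGrk-/- was 24.3% of that of WT without LPS and 74.3% with LPS. In bulk RNA a lower number of dividing cells and less of these RNAs in each cell cannot be told apart. A single read was worth between 0.140 and 0.191 CPM, so that the median gene of the list rested on 166 to 229.5 reads in the unstimulated WT libraries and on at most 12 reads in the LPS-stimulated 3xGrk-/- libraries.

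**Figure D1:**
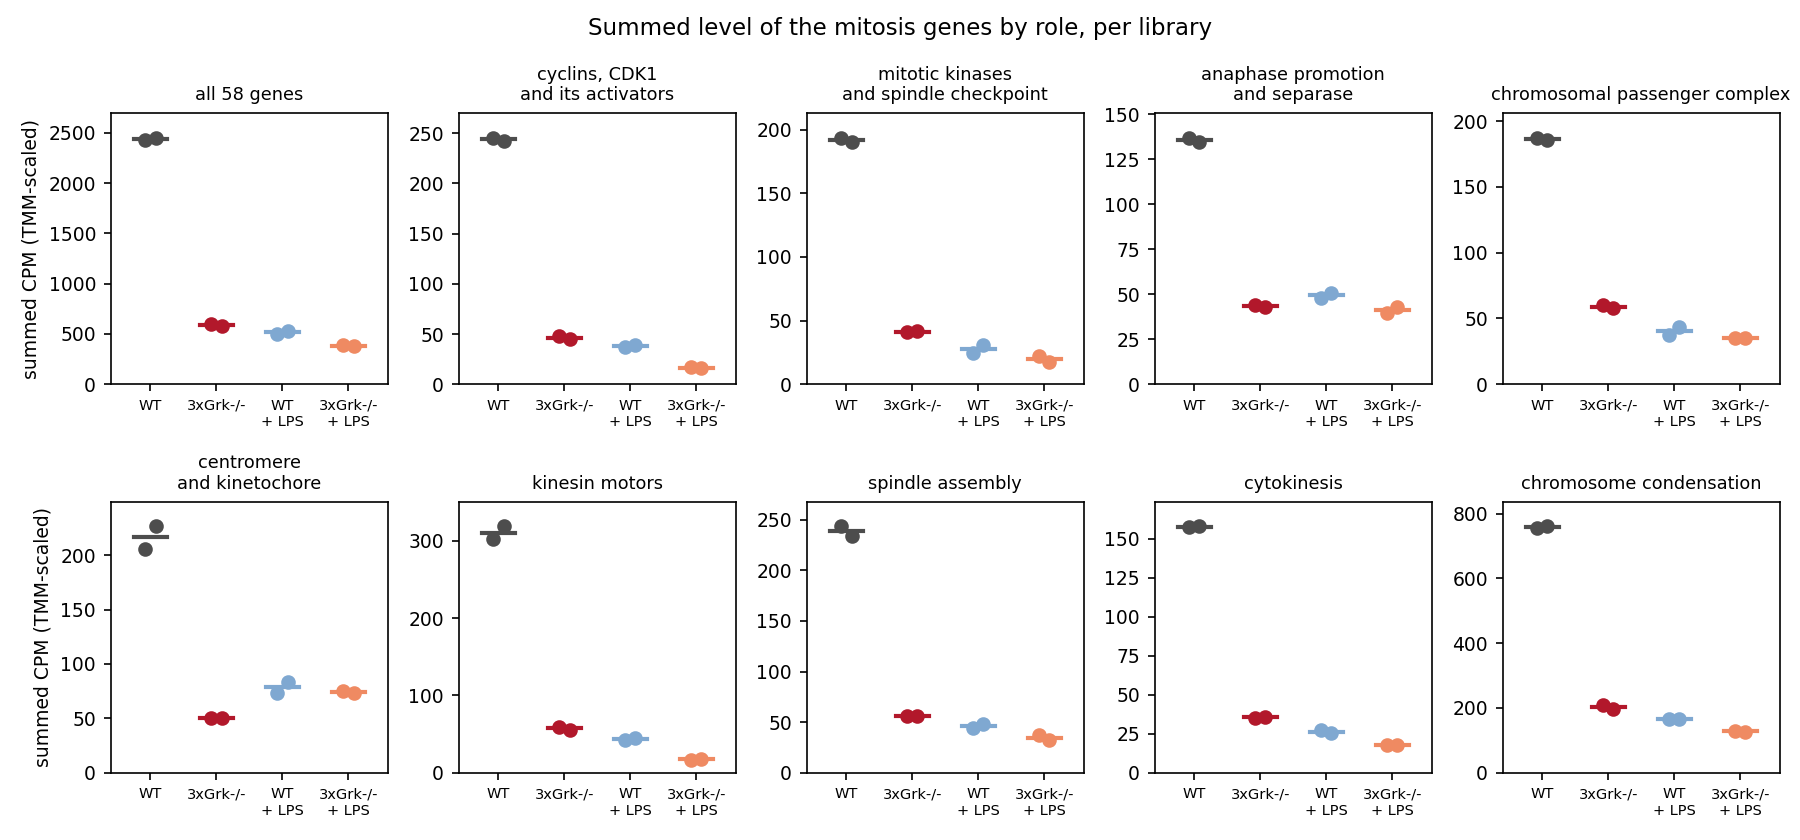
Summed level of the 58 genes and of their 9 roles in CPM (vertical axis, from 0) for the 4 groups; each point is 1 library and each line the mean of the 2 libraries of a group. In all 10 panels both unstimulated WT libraries lie above the other 6, and in the panel of centromere and kinetochore genes both LPS-stimulated groups lie above the unstimulated 3xGrk-/- libraries.

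The promoters of these genes were looked at because the genes moved together. Many late cell cycle genes carry a cell cycle homology region (CHR), the element through which the MuvB complex binds, downstream of CCAAT boxes, which bind the factor NF-Y. RefSeq promoter windows on GRCm38.p6, of 250 bases before and 50 bases from the gene start, were matched by symbol for 48 of the 58 genes (50 windows, since Ect2 and Prc1 have overlapping pairs). A CHR was searched as TTTGAA or TTCGAA and a CCAAT box as CCAAT, each on both strands, where TTCGAA reads the same on both. A match of one motif can share bases at its end with a match of the other, and neither holds the other whole. A CHR was found in 39 of the 50 windows (78.0%), against 14.0% of the 11624 windows of the other genes tested without LPS and 19.2% of all 32851 windows. A CCAAT box was found in 37 windows (74.0%), against 37.6% and 37.4%, and both motifs in 34 windows (68.0%), against 5.57% and 7.52%. At least 2 CCAAT boxes stood in 48.0% of the windows of the mitosis genes and in 14.2% of those of the other genes tested. These matches are descriptions of the letters and not measured binding sites.

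The following windows run from 120 bases before to 30 bases from the start, 5′ to 3′ on the gene's strand, with both motifs in capitals on either strand (a CCAAT box read from the other strand is ATTGG, and a CHR is TTCAAA). Ccnb2 is shown as a case with 3 CCAAT boxes followed by a CHR just past the start, Cdk1 and Top2a as well measured core genes that hold both, Cenpa as a gene with both motifs that did not stay low with LPS, and Birc5 as a gene with neither that fell like the others.
Ccnb2, chr9:70421525-70421674, minus strand: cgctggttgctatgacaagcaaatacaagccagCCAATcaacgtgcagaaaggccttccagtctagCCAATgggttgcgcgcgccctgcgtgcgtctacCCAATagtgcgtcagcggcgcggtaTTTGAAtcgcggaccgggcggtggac
Cdk1, chr10:69352883-69353032, minus strand: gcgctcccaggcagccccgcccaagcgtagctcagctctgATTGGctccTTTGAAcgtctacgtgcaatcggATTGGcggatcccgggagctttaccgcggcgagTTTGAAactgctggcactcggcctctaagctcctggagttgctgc
Top2a, chr11:99024160-99024309, minus strand: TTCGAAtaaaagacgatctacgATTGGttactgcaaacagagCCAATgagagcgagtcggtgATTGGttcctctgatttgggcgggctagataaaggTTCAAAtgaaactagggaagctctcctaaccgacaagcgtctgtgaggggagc
Cenpa, chr5:30666766-30666915, plus strand: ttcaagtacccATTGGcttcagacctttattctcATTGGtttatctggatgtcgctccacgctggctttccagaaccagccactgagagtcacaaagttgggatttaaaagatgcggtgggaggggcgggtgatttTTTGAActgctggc
Birc5, chr11:117849117-117849266, plus strand: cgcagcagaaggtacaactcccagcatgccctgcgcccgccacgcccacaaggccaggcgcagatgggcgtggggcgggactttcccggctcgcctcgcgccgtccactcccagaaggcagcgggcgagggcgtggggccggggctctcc

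Of the matches in the mitosis genes, CHRs were most frequent just downstream of the start, with 32.0 matches per 100 windows within the first 25 bases, where the other genes tested had 0.903. CCAAT boxes lay mostly upstream, with 30 matches per 100 windows between 75 and 51 bases before the start and again 30 in the last 25 bases before it, where the other genes tested had 9.09 and 4.59. Of the 48 genes, 8 held neither motif (Birc5, Mad2l1, Melk, Ncaph, Nuf2, Nusap1, Pttg1 and Tacc3). The median log2 fold change of 3xGrk-/- over WT without LPS was -2.36 for the 37 genes with a CHR and -2.53 for the 11 without one. Genes with a CHR ranged from -3.26 to -1.42 and genes without one from -3.45 to 0.15, so that these values overlapped. For 5 of the 50 windows (Kif2c, Cdca8, Cenpm, Kif4 and Pttg1) the start lies more than 250 bases from the gene start in GENCODE M21, from which gene positions were taken here, by 270 bases for Pttg1 and up to 3867 for Kif2c.

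**Figure D2:**
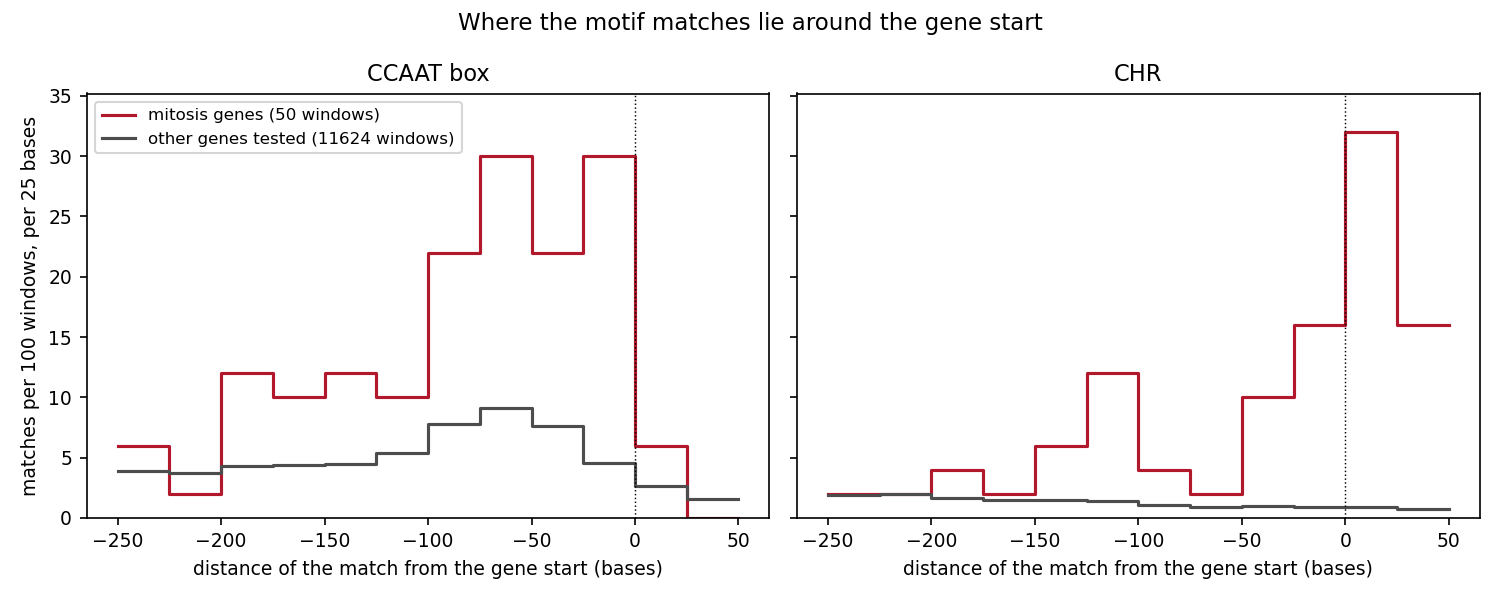
Position of CCAAT and CHR matches (left and right) as matches per 100 windows in each 25 bases, against the distance from the gene start in bases; the red line is the 50 windows of the mitosis genes and the grey line the 11624 windows of the other genes tested. The red line is highest at 32.0 for CHR in the first 25 bases from the start, where the grey line is at 0.903.

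Without LPS, nearly all of the 58 genes were lower in 3xGrk-/- than in WT BMDCs. A gene was called when its adjusted p was under 0.05 (edgeR, quasi-likelihood test; Benjamini-Hochberg adjustment across the 12000 genes tested). Of the 58 genes, 57 fell and 0 rose, and log2 fold changes are given ± their SE. For comparison, 22.7% of all genes tested fell and 22.1% rose. The median log2 fold change of the 58 genes was -2.40, which is 5.29-fold lower, and that of all genes was -0.0017. Nek2 had the lowest value (-3.45), and the exception was Pttg1, at 0.15 ± 0.14 with an adjusted p of 0.404. By unadjusted p under 0.05, and in DESeq2, 57 genes were lower and 0 higher as well.

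With LPS the genotypes were closer. Of the 58 genes, 47 passed the filter on low counts, 27 of them were lower in 3xGrk-/-, 0 were higher and 20 were not called, while 24.0% of the 11830 genes tested fell and 24.7% rose. By unadjusted p under 0.05, 31 were lower and 0 higher. The median over the 47 genes was -0.75, 1.68-fold lower, against -0.0066 for all genes. It leaves out genes that are part of the median without LPS. With no filter it was -0.89, and in a fit of all 8 libraries -0.91. The 11 genes that could not be tested had at most 16 reads in any of the 4 LPS-stimulated libraries; they are Cdc25c, Cenpf, Cenpm, Cenpn, Ckap2, Kif18b, Kif2c, Nek2, Nuf2, Spc24 and Ttk. The count of 27 depended on the tool and on 1 library. DESeq2 called 11 of the 47 lower (Ccna2, Ccnb1, Ccnb2, Melk, Ube2c, Cenpe, Kif4, Kif11, Kif15, Kif23 and Smc4) and 0 higher, so that the remaining calls of this comparison rest on edgeR alone, and leaving out the second LPS-stimulated WT library left 15.

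LPS lowered nearly all of these genes in WT cells. Of the 58 genes, 56 fell with LPS, Pttg1 rose and Cenpa was not called, where 30.8% of the 12541 genes tested fell and 29.5% rose. The median was -3.03, 8.17-fold lower, against -0.0148 for all genes. Cenpf fell furthest, by 20.99-fold, to 9 and 8 reads. The 11 genes with too few reads to be tested with LPS alone entered this fit of all 8 libraries with their unstimulated levels. With at least 10 counts asked of every library, which leaves fewer genes to test, 25 fell. Since the unstimulated WT libraries enter both this comparison and that of the genotypes without LPS, the 2 sets of values are not independent.

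In 3xGrk-/- cells, where the genes already started from a lower level, 47 of the 58 fell with LPS, 2 rose (Cenpa and Pttg1) and 9 were not called, against 27.4% lower and 28.0% higher among all 12541 genes. DESeq2 called 39 lower and 2 higher, and a coefficient of variation of 0.2 set for every gene gave 36 lower. The median was -1.38, 2.60-fold lower, against -0.0072 for all genes. Both LPS-stimulated 3xGrk-/- libraries had 1 to 3 reads for Ccnb2, Cdc25c, Cenpf, Cenpm, Kif18b and Kif2c. Ratios of summed reads are given for these genes with a 95% Clopper-Pearson interval that covers counting error only. With LPS, Cdc25c in these libraries was 1.95-fold lower than in WT (interval 0.416 to 12.04) and Cenpm 2.68-fold lower (interval 0.794 to 11.5). Against 3xGrk-/- without LPS, Cdc25c was 3.13-fold lower (interval 0.805 to 17.7) and Cenpm 2.81-fold lower (interval 0.852 to 11.97). Each of these intervals includes no difference. The summed level of the 58 genes went down to 21.2% of the unstimulated level in WT and to 64.8% in 3xGrk-/- cells. Cenpa and Pttg1, which rose, made up 7.55% of the sum in 3xGrk-/- cells without LPS and 26.3% with LPS.

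The difference between these responses was tested as the interaction of genotype and LPS, the log2 fold change of 3xGrk-/- over WT with LPS minus that without. It was above 0 for 37 of the 58 genes, below 0 for 0 in the same edgeR test, and not called for 21. The 37 include Ckap2 and Nek2, which had too few reads to be tested with LPS alone and entered the fit of all 8 libraries with their unstimulated levels. An unadjusted p under 0.05 was reached by 40 genes above 0 and 0 below, and DESeq2 called 31 and 0. Among all 12541 genes, 16.5% were higher and 16.0% lower. The median was 1.32, against 0.0057 for all genes. With a coefficient of variation of 0.2 set for every gene 18 were called, and with at least 10 reads asked of every library 24.

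**Figure D3:**
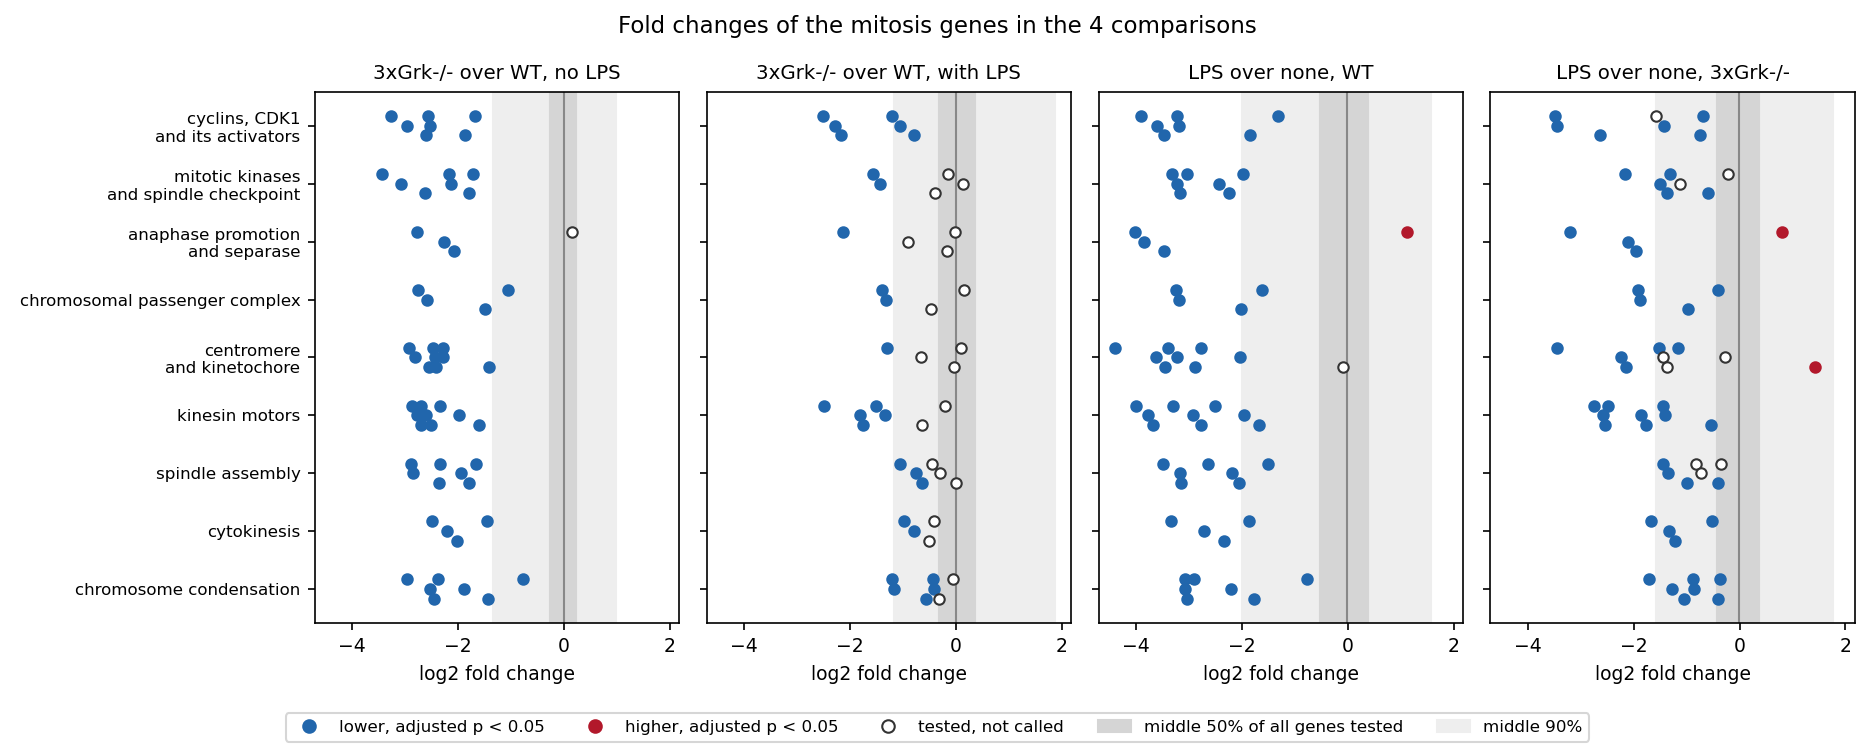
Log2 fold change (horizontal axis) of each gene in the 4 comparisons, in rows by role; filled points passed an adjusted p under 0.05 (blue lower, red higher), open points did not, and the grey bands hold the middle 50% and 90% of all genes tested. The points sit left of the 90% band, whose lower edge is at -1.33, for all but Incenp, Pttg1 and Smc4 in the comparison of genotypes without LPS, and are spread from -2.51 to 0.15 with LPS. The values of the 6 genes with at most 3 reads in each LPS-stimulated 3xGrk-/- library depend on the fit.

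Other gene groups moved to different degrees, and their counts are given beside those of the mitosis genes. Of 60 further mitotic genes, 54 were lower in 3xGrk-/- without LPS, led by Ska1 (-3.40), a kinetochore component with 5.91 and 6.29 CPM in WT and 0.896 and 0.173 CPM in 3xGrk-/- libraries, and 0 were higher, with a median of -1.76. Of 22 DNA replication genes 21 were lower, led by Mcm10 (-2.89), with a median of -1.35. Of 16 MuvB, B-Myb and E2F factors 11 were lower and 0 higher, where DESeq2 called 7 and 0, and E2f7, a repressor made in S phase, had the largest change (-3.04). Mybl2, which encodes B-Myb, a partner of the MuvB complex, had 29.2 and 27.4 CPM in WT and 7.61 and 7.80 CPM in 3xGrk-/- libraries without LPS.

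Subunits of the APC/C and of cohesin, which are also made in resting cells, had medians near 0 without LPS. Of all genes tested without LPS, 22.1% were higher in 3xGrk-/- and 22.7% lower. Of the 15 APC/C genes (Fzr1 included), edgeR and DESeq2 called 0 without LPS (median log2 fold change -0.03), 2 were lower at an unadjusted p under 0.05, and 4 were called lower when libraries were scaled by their total only. Of 10 cohesin genes, 1 was higher and 3 were lower (median -0.06), with DESeq2 0 and 3, and with scaling by the total 0 and 6. That scaling moved the median of all genes to -0.0863, and with LPS it turned the APC/C median from 0.02 to -0.06. With LPS both lists held calls in both directions, where 24.7% of all genes tested were higher and 24.0% lower. Of the 15 APC/C genes 3 were higher and 3 lower, from Anapc15 (-0.68) to Anapc16 (0.43), and of the 10 cohesin genes 1 was higher and 3 were lower (median -0.15), while DESeq2 called 0 higher and 3 lower in the APC/C and 0 higher and 1 lower in cohesin. Without LPS the G1 genes were split, with Ccnd2, a D-type cyclin, higher (955 and 992 CPM in 3xGrk-/- against 564 and 594 in WT) and 6 of 8 lower, led by the S phase cyclin gene Ccne2 (-2.50). Of 16 inhibitors and exit genes tested without LPS, 4 were higher, led by Cdkn2b, an inhibitor of CDK4 and CDK6 (0.80), and 9 were lower, led by Pkmyt1 (-1.61), a kinase that holds CDK1 inactive. The 4 higher genes are a share close to the 22.1% of all genes tested. DESeq2 called 3 of these 16 higher and 6 lower.

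With LPS, 11 of 46 further mitotic genes tested were lower in 3xGrk-/-, led by Aspm (-2.71), a share close to the 24.0% of all genes tested, and Cenpl was higher (0.55). DESeq2 called 4 of the 46 lower and 0 higher. Of 21 DNA replication genes tested, 9 were lower, led by Rrm2 (-2.14), and 3 were higher, led by Uhrf1 (1.14), where DESeq2 called 2 lower and 1 higher. Uhrf1, which recruits the maintenance DNA methyltransferase, had 98.0 and 100.4 CPM in unstimulated WT, 56.6 and 58.4 in unstimulated 3xGrk-/-, 22.3 and 25.3 in LPS-stimulated WT and 53.4 and 52.3 in LPS-stimulated 3xGrk-/- libraries. The log2 fold change of Uhrf1 with LPS was -2.05 in WT and -0.12 in 3xGrk-/- cells, with an interaction of 1.93 ± 0.13 and an adjusted p of 1.37e-12. The interaction was above 0 for 16 of the 22 replication genes and for 25 of the 60 further mitotic genes, and below 0 for 0 and 1 of them, and DESeq2 called 16 above and 0 below among the 60.

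Marker genes of other cells also moved with the groups, and their part in these results was not tested. Summed over 11 macrophage and monocyte genes, of which none was at 0, the level was 1050 to 1081 CPM in unstimulated WT, 1551 to 1617 in unstimulated 3xGrk-/-, 513 to 530 in LPS-stimulated WT and 2894 to 2954 in LPS-stimulated 3xGrk-/- libraries. Without LPS the list was split, with 6 of the 11 higher in 3xGrk-/-, led by Cd68 (2.09), and 4 lower, led by the complement gene C1qb (-1.94), and with LPS 10 were higher and 0 lower. The 10 myeloid progenitor genes, marks of the precursors that could divide, had 167 to 171, 121 to 123, 133 to 135 and 86.9 to 88.2 CPM in the same order, and 5 of the 10 were lower (3 in DESeq2) and 1 (Gata2) higher in 3xGrk-/- without LPS. With LPS 6 of the 10 were lower and 0 higher (median -1.17). Progenitor genes were thus at 72.1% of the WT level without LPS, where the mitosis genes were at 24.3%, and at 65.4% with LPS, where the mitosis genes were at 74.3%.

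Granulocyte and mast cell markers differed too. The 8 genes of mast cells, basophils and eosinophils had 931 to 986, 80.8 to 83.0, 921 to 989 and 56.3 to 57.9 CPM in that order, so that their sum was lower in 3xGrk-/- in both stimulations and hardly moved with LPS in WT cells, unlike that of the mitosis genes; 5 of the 7 tested were lower without and 6 with LPS, and 0 were higher. The 9 neutrophil genes had 818 to 862, 1266 to 1296, 360 to 416 and 548 to 569 CPM, a sum that went up in 3xGrk-/- with Mmp8, a collagenase (2.84 and 3.85). The other members went the other way or were not called: 5 of 9 were lower and 1, Mmp8, higher without LPS (median -0.45), and 6 of the 8 tested were lower and Mmp8 higher with LPS (median -0.84). The 9 lymphocyte genes stayed under 5.73 CPM and 6 erythroid genes under 16.9 CPM, with Hba-a1 and Hba-a2 at 0 in every library. The 6 stromal genes had 9.53 to 17.2 CPM in 6 libraries and 134 to 145 CPM in the LPS-stimulated 3xGrk-/- libraries.

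Cyclins, CDK1 and its activators open mitosis. Cdk1, the kinase at the centre of mitotic entry, had 46.7 and 43.2 CPM (WT) and 11.8 and 12.8 CPM (3xGrk-/-) without LPS, and 12.7 and 12.4 CPM (WT) and 6.71 and 7.77 CPM (3xGrk-/-) with LPS. The unstimulated 3xGrk-/- and the LPS-stimulated WT libraries lay in 1 range, and both LPS-stimulated 3xGrk-/- libraries were lowest. The log2 fold change of 3xGrk-/- over WT was -1.86 ± 0.13 in unstimulated cells (adjusted p = 4.67e-46) and -0.78 ± 0.20 after LPS (adjusted p = 0.0028). Cdk1 was among the 27 genes called in both stimulations, and its interaction was 1.08 ± 0.23.

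Ccnb1, the gene of cyclin B1, had 35.8 and 41.5 CPM in WT and 7.17 and 6.24 CPM in 3xGrk-/- libraries without LPS, and 3.62 and 3.40 CPM and 0.544 and 0.647 CPM with LPS. The genotype difference was -2.53 ± 0.15 without and -2.51 ± 0.47 with LPS, the latter being the lowest value of the 47 genes tested in stimulated cells, and the interaction was 0.02 ± 0.58, with an adjusted p of 0.996. Ccna2, the S and G2 phase cyclin A2, had 68.3 and 62.9 CPM in unstimulated WT, 11.5 and 9.88 in unstimulated 3xGrk-/-, 4.71 and 4.01 in LPS-stimulated WT and 1.63 and 0.324 in LPS-stimulated 3xGrk-/- libraries. It was lower in 3xGrk-/- in both stimulations (-2.60 and -2.18). Its LPS-stimulated 3xGrk-/- libraries rest on 9 and 2 reads.

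Ccnb2, the second B-type cyclin, had 30.1 and 33.0 CPM (WT) and 2.84 and 3.81 CPM (3xGrk-/-) without LPS, and 2.72 and 2.47 CPM (WT) and 0.544 and 0.485 CPM (3xGrk-/-) with LPS. It had the lowest log2 fold change of its group without LPS (-3.26 ± 0.19), and with LPS the 3xGrk-/- libraries had 3 reads each. Scaled for depth, these were 5.03-fold lower than in WT (interval 2.07 to 14.8) and 6.41-fold lower than without LPS (interval 2.705 to 18.5). Foxm1, a transcription factor that drives G2 and M phase genes and is itself one of them, had 29.7 and 28.4 CPM in WT and 3.88 and 3.47 CPM in 3xGrk-/- libraries without LPS, and 3.44 and 2.93 CPM and 0.907 and 1.78 CPM with LPS. It was 7.82-fold lower in 3xGrk-/- without LPS and 2.30-fold lower with LPS (adjusted p = 0.0196). The phosphatase gene Cdc25c was lower without LPS (-2.56) and had at most 4 reads in any LPS-stimulated library. Melk, a kinase gene of dividing cells, had 29.7 and 28.8 CPM in unstimulated WT, 10.0024 and 8.15 in unstimulated 3xGrk-/-, 9.96 and 13.3 in LPS-stimulated WT and 6.35 and 5.02 in LPS-stimulated 3xGrk-/- libraries. It moved least in the group without LPS (-1.67 ± 0.15) and was lower with LPS as well (-1.05), where all 6 tested genes of the group were called lower.

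Among mitotic kinases and the spindle checkpoint, all 7 genes were lower in 3xGrk-/- without LPS. Plk1, the polo-like kinase that drives spindle and centrosome maturation, had 30.3 and 27.4 CPM (WT) and 2.99 and 3.81 CPM (3xGrk-/-) without LPS, and 2.90 and 4.01 CPM (WT) and 1.81 and 0.809 CPM (3xGrk-/-) with LPS. It was 8.47-fold lower in unstimulated 3xGrk-/- (-3.08 ± 0.19, adjusted p = 1.47e-56) and 2.69-fold lower with LPS (adjusted p = 0.00769). Its interaction of 1.65 ± 0.53 passed the test, the difference being smaller with LPS.

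Nek2, a kinase of centrosome separation, had 18.5 and 15.5 CPM in WT and 1.19 and 1.91 CPM in 3xGrk-/- libraries without LPS, and 1.27 and 2.01 CPM and 0.544 and 0.809 CPM with LPS. It had the largest difference of the whole list without LPS, 10.9-fold, and too few reads to be tested with LPS. Mad2l1, which encodes the checkpoint protein MAD2, moved least in this group, with 34.3 and 37.8 CPM in unstimulated WT, 9.55 and 12.7 in unstimulated 3xGrk-/-, 6.34 and 6.95 in LPS-stimulated WT and 7.62 and 6.96 in LPS-stimulated 3xGrk-/- libraries. With LPS the 3xGrk-/- libraries were above those of WT and no difference was called (0.13 ± 0.23, adjusted p = 0.687).

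Bub1, a checkpoint kinase at the kinetochore, had 34.3 and 33.4 CPM (WT) and 5.23 and 5.72 CPM (3xGrk-/-) without LPS, and 3.08 and 4.01 CPM (WT) and 2.18 and 0.324 CPM (3xGrk-/-) with LPS. It was lower in both stimulations (-2.63 and -1.56), and its LPS-stimulated 3xGrk-/- libraries rest on 12 and 2 reads. Its partner Bub1b, which encodes BUBR1, fell with the genotype without LPS (-1.80) and was at -0.14 ± 0.28 with LPS. Aurka, the spindle pole kinase Aurora A, was lower without LPS (-2.17) and not called with LPS (-0.40, adjusted p = 0.258). Ttk, the checkpoint kinase MPS1, was lower without LPS (-2.14). With LPS, 2 of the 5 genes tested (Bub1 and Plk1) were called lower, and DESeq2 called 0 of the 5.

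The group of anaphase promotion and separase held the clearest exception. Cdc20, the activator that turns on the APC/C in mitosis, had 33.6 and 32.0 CPM in WT and 7.61 and 5.72 CPM in 3xGrk-/- libraries without LPS, and 2.90 and 2.93 CPM and 1.63 and 1.46 CPM with LPS. It was 4.84-fold lower in 3xGrk-/- without LPS, and with LPS it stood at -0.91 ± 0.39, just outside the threshold (adjusted p = 0.0562). Ube2c, the ubiquitin-conjugating enzyme that works with the APC/C, had 46.1 and 43.1 CPM in unstimulated WT, 5.97 and 7.11 in unstimulated 3xGrk-/-, 3.44 and 2.78 in LPS-stimulated WT and 0.363 and 0.971 in LPS-stimulated 3xGrk-/- libraries. It was called in both stimulations (-2.77 ± 0.15 and -2.14 ± 0.49). Espl1, the gene of separase, the protease that cuts cohesin, had 38.5 and 40.1 CPM (WT) and 9.70 and 8.84 CPM (3xGrk-/-) without LPS, and 1.99 and 2.78 CPM (WT) and 1.63 and 3.07 CPM (3xGrk-/-) with LPS. It was 4.23-fold lower without LPS and not called with LPS (-0.01 ± 0.40, adjusted p = 0.981).

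Pttg1 encodes securin, the inhibitor of separase that the APC/C destroys at anaphase. It had 18.7 and 19.0 CPM in WT and 20.6 and 21.3 CPM in 3xGrk-/- libraries without LPS, and 39.5 and 42.3 CPM and 36.1 and 37.2 CPM with LPS. All 4 LPS-stimulated libraries were above all 4 unstimulated ones, the reverse of most genes of the list. LPS raised it by 1.12 ± 0.11 on the log2 scale in WT (adjusted p = 1.51e-09) and by 0.81 ± 0.11 in 3xGrk-/- cells (adjusted p = 6.86e-07), and no genotype difference was called in either stimulation. Per length, Pttg1 was the most abundant of the 58 genes in both LPS-stimulated groups, with 20.5 RPKM (CPM per kilobase of exon) in WT and 18.3 in 3xGrk-/- cells. Without LPS it was second to Smc4 in 3xGrk-/- cells with 10.5 RPKM, and in WT cells Top2a led with 22.4 RPKM.

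**Figure D4:**
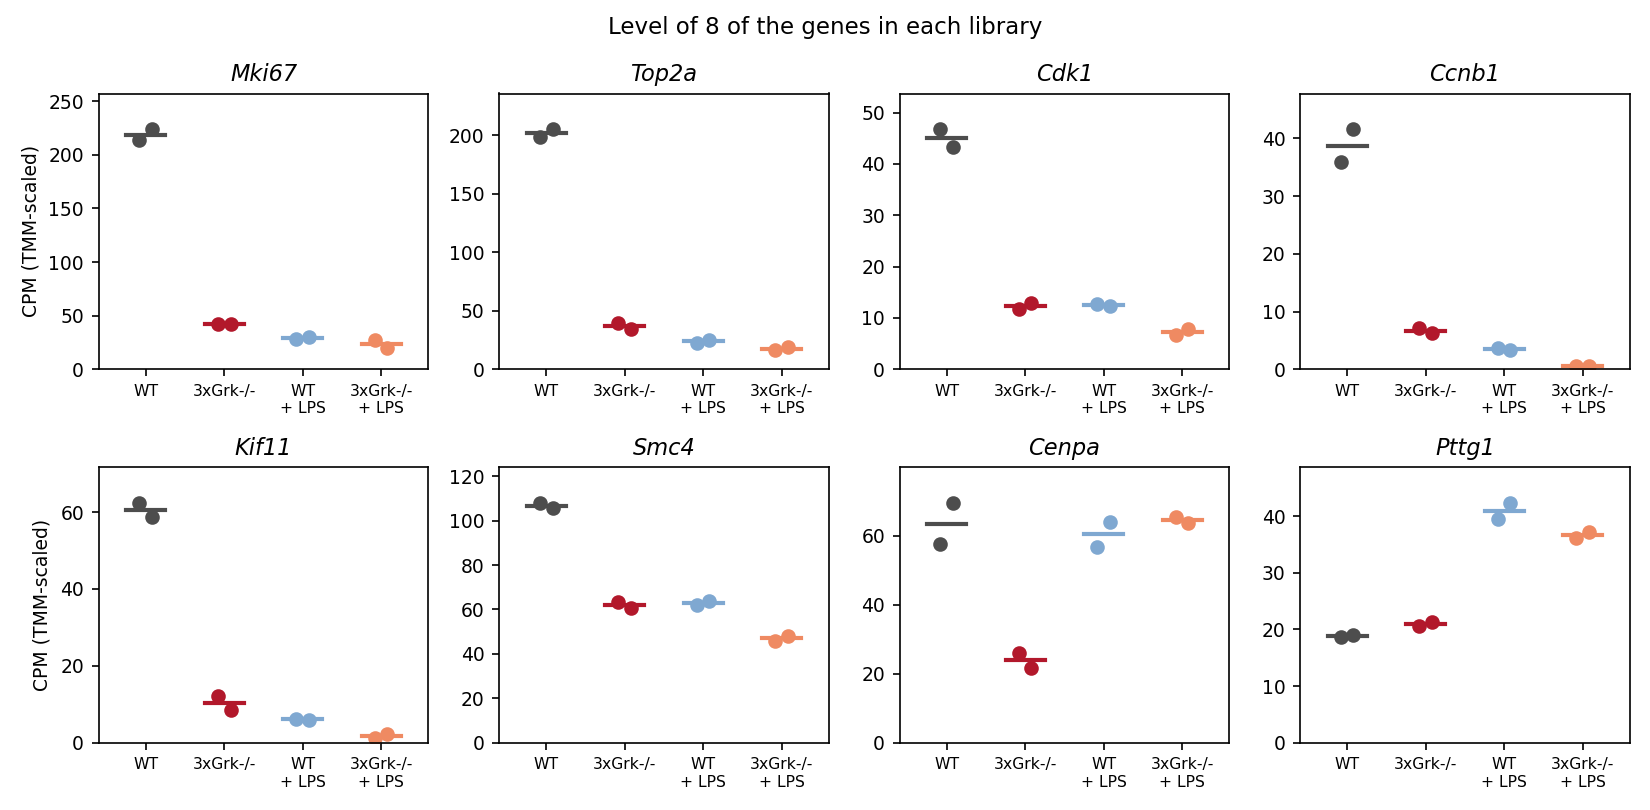
Level of 8 genes in CPM (vertical axes, from 0) in the 4 groups; each point is 1 library and each line the mean of the 2 libraries of a group. Mki67, Top2a, Cdk1, Ccnb1, Kif11 and Smc4 are highest in the unstimulated WT libraries, Cenpa is low in the unstimulated 3xGrk-/- libraries only, and Pttg1 is higher in all 4 LPS-stimulated libraries than in the 4 others.

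The chromosomal passenger complex corrects faulty attachments and acts again in cytokinesis. Aurkb, its kinase Aurora B, had 39.1 and 35.9 CPM in unstimulated WT, 6.12 and 6.24 in unstimulated 3xGrk-/-, 3.62 and 4.48 in LPS-stimulated WT and 1.27 and 1.94 in LPS-stimulated 3xGrk-/- libraries. It was lower in unstimulated 3xGrk-/- cells (-2.59 ± 0.16, adjusted p = 1.29e-59), and again after LPS (-1.32 ± 0.37, adjusted p = 0.00534). Birc5, which encodes survivin and whose printed window holds neither motif, had 43.7 and 39.0 CPM (WT) and 5.82 and 6.24 CPM (3xGrk-/-) without LPS, and 3.80 and 4.79 CPM (WT) and 1.45 and 1.78 CPM (3xGrk-/-) with LPS. It followed Aurkb closely, at -2.77 ± 0.15 and -1.40 ± 0.36. DESeq2 called neither with LPS.

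The other subunits moved less. Incenp, the scaffold of the complex, had 66.9 and 69.7 CPM in WT and 32.8 and 32.9 CPM in 3xGrk-/- libraries without LPS, and 20.5 and 23.8 CPM and 26.5 and 22.98 CPM with LPS. It was 2.08-fold lower in 3xGrk-/- without LPS, and with LPS it had the highest value of the whole list (0.15 ± 0.14), which was not called (adjusted p = 0.393). Cdca8, the gene of borealin, was 2.83-fold lower without LPS and at -0.47 ± 0.23 with LPS. For all 4 subunits the interaction was called above 0, between 1.03 and 1.36.

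Centromere and kinetochore genes were all lower in unstimulated 3xGrk-/- cells, 9 of 9. Cenpa encodes the histone H3 variant that marks centromeres and is loaded after mitosis. It had 57.6 and 69.5 CPM in unstimulated WT, 26.1 and 21.7 in unstimulated 3xGrk-/-, 56.7 and 64.1 in LPS-stimulated WT and 65.3 and 63.8 in LPS-stimulated 3xGrk-/- libraries. The unstimulated 3xGrk-/- libraries were low, and the other 6 libraries lay in 1 range. Cenpa was 2.67-fold lower in 3xGrk-/- without LPS (adjusted p = 1.87e-44), at 0.09 ± 0.09 with LPS, and rose 2.68-fold with LPS in 3xGrk-/- cells (adjusted p = 1.32e-11), while no change with LPS was called in WT cells (-0.08 ± 0.10). Its interaction of 1.51 ± 0.15 had an adjusted p of 4.54e-09. The summed level of its group was higher with LPS than without in 3xGrk-/- cells (73.0 to 74.8 against 50.3 to 50.6 CPM), and most of it was Cenpa.

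No other gene of the group was called higher with LPS. Cenpf, a large kinetochore protein of G2 and M phase, had 29.6 and 30.6 CPM (WT) and 4.03 and 3.81 CPM (3xGrk-/-) without LPS, and 1.63 and 1.24 CPM (WT) and 0.363 and 0.324 CPM (3xGrk-/-) with LPS. It had the lowest value of the group without LPS (-2.93 ± 0.18) and 2 reads in each LPS-stimulated 3xGrk-/- library, 4.14-fold lower than in LPS-stimulated WT (interval 1.35 to 16.9) and 11.5-fold lower than without LPS (interval 4.21 to 43.8). Cenpe, the kinetochore kinesin, had 42.5 and 43.6 CPM in WT and 5.97 and 9.01 CPM in 3xGrk-/- libraries without LPS, and 5.79 and 6.79 CPM and 2.54 and 2.59 CPM with LPS. It was the only 1 of the 4 tested genes of the group called lower with LPS (-1.30 ± 0.30).

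The NDC80 complex, which holds microtubules, was measured by its 4 genes Ndc80, Nuf2, Spc24 and Spc25, which were between -2.47 and -2.28 without LPS. Ndc80 had 16.8 and 18.7 CPM in WT and 1.94 and 4.85 CPM in 3xGrk-/- cells. The unstimulated 3xGrk-/- libraries were far apart, and the change of Ndc80 with LPS in 3xGrk-/- cells (-0.27 ± 0.37) turned to 0.49 when the second of them was left out. Spc25 had 14.9 and 18.3 CPM in WT and 3.28 and 3.64 CPM in 3xGrk-/- libraries without LPS, and 1.09 and 2.01 CPM and 1.9962 and 1.13 CPM with LPS. It had the smallest genotype difference of the group with LPS (-0.04 ± 0.48). Cenpm and Cenpn, subunits of the constitutive centromere network, were lower without LPS (-2.82 and -2.43) and had at most 8 reads in any LPS-stimulated library.

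Kinesin motors, which slide and depolymerise spindle microtubules or move along them, were all 9 lower without LPS, with a median of -2.61. Kif11, the motor Eg5 that pushes spindle poles apart, had 62.3 and 58.6 CPM in unstimulated WT, 12.2 and 8.49 in unstimulated 3xGrk-/-, 6.16 and 6.02 in LPS-stimulated WT and 1.27 and 2.27 in LPS-stimulated 3xGrk-/- libraries. It was 5.73-fold lower in unstimulated 3xGrk-/- (-2.52 ± 0.12, adjusted p = 7.46e-89) and 3.36-fold lower with LPS (-1.75 ± 0.34, adjusted p = 0.000179). The interaction of 0.77 ± 0.41 was not called (adjusted p = 0.164).

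Kif4, a chromosome-bound kinesin, had 24.98 and 30.1 CPM (WT) and 3.73 and 4.85 CPM (3xGrk-/-) without LPS, and 8.69 and 8.80 CPM (WT) and 0.907 and 2.1035 CPM (3xGrk-/-) with LPS. It had the widest gap of its group with LPS (-2.49 ± 0.33) and the smallest response to LPS among kinesins in WT cells (-1.67); 832 of its 5514 exonic bases are shared with Pdzd11 on the other strand, so its reads may not all be its own if strand was not used in counting. Kif18b, a depolymerising kinesin with the lowest value of the group without LPS (-2.87 ± 0.23), had 17.4 and 19.0 CPM in WT and 3.58 and 1.21 CPM in 3xGrk-/- libraries without LPS, and 1.45 and 1.39 CPM and 0.363 and 0.485 CPM with LPS. Kif20b, which works in late cytokinesis, moved least in both stimulations (-1.61 ± 0.16 and -0.20 ± 0.25), with 22.9 and 27.6 CPM in unstimulated WT, 8.51 and 8.15 in unstimulated 3xGrk-/-, 6.16 and 6.95 in LPS-stimulated WT and 6.71 and 4.85 in LPS-stimulated 3xGrk-/- libraries.

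Of the 7 kinesins tested with LPS, 5 were lower in 3xGrk-/-, namely Kif11, Kif15, Kif22, Kif23 and Kif4, from -2.49 to -1.34. Kif20a, which carries the passenger complex to the midzone, was 6.87-fold lower without LPS and was not called with LPS (-0.64); its interaction of 2.14 ± 0.40 was the largest of the kinesins. Kif23, a midzone motor, differed by -1.98 without and -1.81 with LPS, with an interaction of 0.17 that was not called. Kif2c, another depolymeriser, was lower without LPS (-2.70), and Kif15 was so too (-2.61). With LPS, Kif18b and Kif2c each had 2 and 3 reads in the 3xGrk-/- libraries. The ratio was 3.31-fold lower than in WT for Kif18b (interval 1.17 to 11.5) and 2.92-fold lower for Kif2c (interval 1.01 to 10.3).

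Spindle assembly genes were lower in 7 of 7 cases without LPS, and all 7, Ckap2 with few reads, had an interaction called above 0. Ckap2, a microtubule-associated protein gene, had 13.9 and 9.51 CPM (WT) and 1.19 and 1.91 CPM (3xGrk-/-) without LPS, and 1.63 and 0.926 CPM (WT) and 0.907 and 0.809 CPM (3xGrk-/-) with LPS. It had the lowest value of the group without LPS (-2.89 ± 0.28) and at most 9 reads in each LPS-stimulated library, too few to be tested there, so that its interaction (2.35 ± 0.76, adjusted p = 0.0166) is uncertain. Tacc3, which stabilises spindle microtubules, had 53.8 and 60.4 CPM in WT and 18.7 and 17.7 CPM in 3xGrk-/- libraries without LPS, and 13.8 and 13.7 CPM and 15.6 and 11.97 CPM with LPS. It moved least without LPS (-1.66 ± 0.11), and with LPS it was at -0.01 ± 0.18, and the libraries of the genotypes overlapped.

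Nusap1, which bundles microtubules around chromosomes, had 47.3 and 36.6 CPM in unstimulated WT, 5.52 and 5.89 in unstimulated 3xGrk-/-, 4.71 and 4.63 in LPS-stimulated WT and 2.54 and 1.94 in LPS-stimulated 3xGrk-/- libraries. It was 7.23-fold lower without and 2.09-fold lower with LPS (adjusted p = 0.0106). Tpx2, the activator of Aurora A on the spindle, was lower without and with LPS (-1.95 and -0.75), and so was Dlgap5, a kinetochore fibre protein gene (-1.80 and -0.64). Hmmr and Ckap2l, which also act at the spindle, were at -2.35 and -2.36 without LPS and were not called with LPS (-0.30 and -0.44).

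All 4 cytokinesis genes were lower without LPS. Prc1, which bundles the microtubules of the midzone, had 54.9 and 48.7 CPM (WT) and 9.41 and 8.67 CPM (3xGrk-/-) without LPS, and 5.61 and 4.63 CPM (WT) and 2.90 and 4.21 CPM (3xGrk-/-) with LPS. It had the lowest value of the group without LPS (-2.50 ± 0.13) and was not called with LPS (-0.50 ± 0.30). Ect2, the exchange factor that activates RhoA at the cleavage furrow, moved least without LPS (-1.45 ± 0.18), with 15.4 and 19.9 CPM in WT and 5.52 and 7.80 CPM in 3xGrk-/- libraries without LPS, and 5.43 and 4.48 CPM and 3.45 and 2.27 CPM with LPS.

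Anln encodes anillin, a scaffold of the contractile ring, and Racgap1 a subunit of centralspindlin. Anln was 4.07-fold lower without LPS and 1.98-fold lower with LPS (adjusted p = 0.0243), with 27.6 and 28.5 CPM in unstimulated WT, 7.46 and 6.24 in unstimulated 3xGrk-/-, 3.98 and 4.48 in LPS-stimulated WT and 2.72 and 1.62 in LPS-stimulated 3xGrk-/- libraries. Racgap1 was 4.64-fold lower without LPS and at -0.41 ± 0.19 with LPS, with 59.5 and 61.1 CPM (WT) and 13.0 and 13.0 CPM (3xGrk-/-) without LPS, and 12.1 and 11.9 CPM (WT) and 8.53 and 9.55 CPM (3xGrk-/-) with LPS. In both stimulations the 3xGrk-/- libraries of these 2 genes lay below those of WT.

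Chromosome condensation held 3 of the 4 genes with the highest level per length in unstimulated WT cells, Top2a (22.4 RPKM), Mki67 (21.7 RPKM) and Smc4 (20.5 RPKM). Mki67, which coats mitotic chromosomes and is the standard stain for cycling cells, had 214 and 224 CPM in WT and 42.2 and 41.8 CPM in 3xGrk-/- libraries without LPS, and 27.9 and 30.4 CPM and 26.9 and 20.1 CPM with LPS. It was 5.21-fold lower in unstimulated 3xGrk-/- cells (-2.38 ± 0.07, adjusted p = 1.11e-278), and the LPS-stimulated libraries of the genotypes were closer (-0.33 ± 0.14, adjusted p = 0.0605). Top2a, the topoisomerase that untangles sister chromatids, had 198 and 205 CPM in unstimulated WT, 39.3 and 34.1 in unstimulated 3xGrk-/-, 22.6 and 25.2 in LPS-stimulated WT and 16.7 and 18.6 in LPS-stimulated 3xGrk-/- libraries. It was 5.48-fold lower without LPS (-2.45 ± 0.07) and 1.35-fold lower with LPS (-0.44 ± 0.14, adjusted p = 0.0144).

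Mki67 and Top2a together made up 17.2% of the summed CPM of the 58 genes in unstimulated WT, 13.3% in unstimulated 3xGrk-/-, 10.3% in LPS-stimulated WT and 10.7% in LPS-stimulated 3xGrk-/- cells. Pttg1 and Cenpa made up 3.38%, 7.55%, 19.6% and 26.3% in the same order. Neither of the latter pair fell with LPS. For Mki67 and Top2a the interaction was 2.05 ± 0.15 and 2.02 ± 0.16, the response to LPS being 7.48-fold and 8.41-fold downward in WT and 1.80-fold and 2.08-fold in 3xGrk-/- cells.

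The condensin genes were graded. Smc4, a core subunit of both condensins, had 108 and 105 CPM (WT) and 63.3 and 60.8 CPM (3xGrk-/-) without LPS, and 62.1 and 63.6 CPM (WT) and 45.9 and 48.2 CPM (3xGrk-/-) with LPS. It was the least changed of the 57 lower genes without LPS (-0.78 ± 0.07) and was still called with LPS (-0.42 ± 0.10, adjusted p = 0.00113). Its partner Smc2 had 79.5 and 82.9 CPM in WT and 28.8 and 31.2 CPM in 3xGrk-/- libraries without LPS, and 27.2 and 20.9995 CPM and 23.6 and 22.7 CPM with LPS. Smc2 was 2.72-fold lower without LPS and not called with LPS (-0.05 ± 0.14, adjusted p = 0.8).

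The 3 genes of condensin I subunits moved further than the SMC pair. Ncapg had 30.9 and 28.5 CPM in unstimulated WT, 3.58 and 3.99 in unstimulated 3xGrk-/-, 3.44 and 3.55 in LPS-stimulated WT and 1.27 and 1.78 in LPS-stimulated 3xGrk-/- libraries. It had the lowest value of its group without LPS (-2.96 ± 0.19). Ncaph, the lowest with LPS (-1.21 ± 0.42), had 25.4 and 24.2 CPM (WT) and 4.48 and 3.99 CPM (3xGrk-/-) without LPS, and 3.08 and 2.93 CPM (WT) and 0.907 and 1.62 CPM (3xGrk-/-) with LPS. Ncapd2 was 3.71-fold lower without LPS and 1.48-fold lower with LPS (adjusted p = 0.00355).

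**Figure D5:**
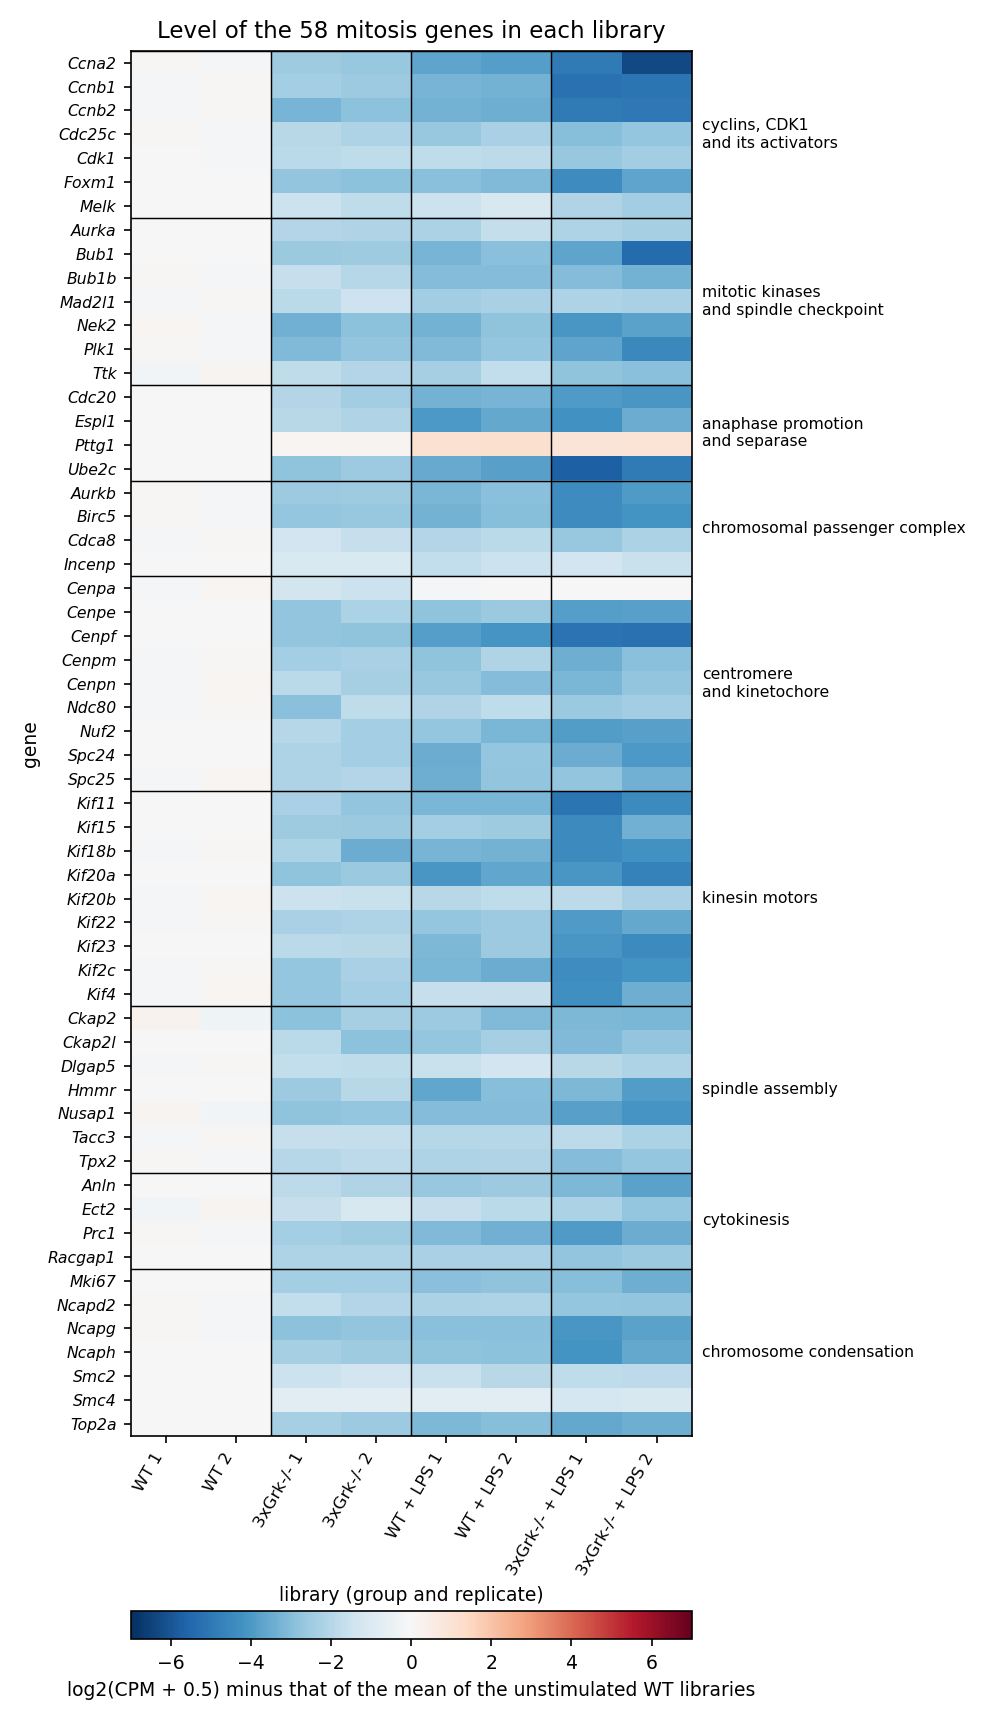
Level of the 58 genes (rows, by role) in the 8 libraries (columns) as log2(CPM + 0.5) minus that of the mean of the unstimulated WT libraries (blue lower, red higher, on a log2 scale). Nearly all rows are blue in the 6 libraries to the right, darkest in the LPS-stimulated 3xGrk-/- libraries, and Pttg1 and, with LPS, Cenpa stand out as rows that are not.

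Across the 4 pairwise comparisons, edgeR called 26 genes lower in every one. They include Cdk1, Ccna2, Ccnb1, Ccnb2, Foxm1, Plk1, Aurkb, Birc5, Bub1, Top2a, 5 kinesin genes (Kif11, Kif15, Kif22, Kif23 and Kif4) and the condensin genes Smc4, Ncapd2, Ncapg and Ncaph. With LPS, DESeq2 called 11 genes lower in 3xGrk-/-, of which Ccna2, Ccnb1, Ccnb2, Kif11, Kif15, Kif23, Kif4 and Smc4 are named here. For the others named, the call between genotypes with LPS rests on edgeR alone. The 19 genes called lower without LPS, tested with LPS and not called there include Mki67, Cdc20, Aurka, Bub1b, Mad2l1, Incenp, Cdca8 and Cenpa. Of the 58 genes, 15 share exonic bases with a gene on the other strand and 3 with a gene on the same strand, and their reads are uncertain to that degree, most of all, by the share of exonic bases, for Kif20a (with Cdc23), Ube2c (with Tnnc2), Kif4, Ncapg (with Lcorl), Cdc25c (with Gm3550), Ccna2 (with Exosc9) and Prc1 (with Rccd1).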

How the data were processed

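Polyadenylated RNA of 8 BMDC libraries was sequenced by the authors with a stranded kit, and reads were mapped to mm10 with STAR 2.7.3a and counted per gene with featureCounts 2.0.0 within snakePipes 2.1.0. The annotation release and the strand setting of the counting are not given in the sources used here. The deposited values are whole-number read counts per gene, in a table per stimulation, and no library was pooled. Groups were taken from the labels for genotype and treatment. GM-CSF and LPS doses and times come from the study's methods.

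Counts were analysed with edgeR 4.0.16 (R 4.3.3): TMM scaling, its default filter on low counts, and quasi-likelihood tests, with p-values adjusted after Benjamini-Hochberg over every gene tested and called under 0.05. Genotypes were compared within each table. The response to LPS and the interaction were fitted on all 8 libraries. SEs were derived from the log2 fold change and its F statistic. Levels are CPM with TMM factors over the 8 libraries, or RPKM by exonic length of GENCODE M21. A fold against a group with at most 3 reads in each library was given as the ratio of summed reads, scaled for depth, with a 95% Clopper-Pearson interval. The tests were checked on simulated data with a coefficient of variation of 0.05, in which only genes with enough reads were changed. That check does not cover genes with few reads after LPS. Alternatives were DESeq2 1.42.0, other scalings, filters and spreads, a replicate block, and leaving out each library. The libraries held 4713305 to 6933358 reads on genes. By the mean chi-square per gene, the LPS-stimulated 3xGrk-/- libraries differed most from each other (9.02, against 1.59 to 3.07 in the other groups). Replicate numbers did not pair the libraries (correlations of deviations from -0.03 to 0.04). The 58 genes, the other gene lists and the tests were chosen with earlier results of these data known. Named with the value in every library are a core gene of each role and, in each role, the genes with the largest and smallest genotype difference in each stimulation; the other members may be named. Genes outside the list are those with the largest change in a fixed list, except Mybl2, which was named after its values were seen.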

Additional observations from a re-analysis of the deposited data

Results flagged for a closer look

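The genotype difference changed with LPS for 37 of the 58 mitosis genes, tested as the interaction of genotype and LPS in edgeR's quasi-likelihood test across all genes. The other 21 were not called, among them the core genes Ccnb1 and Kif11. In each of the 37 the log2 fold change of 3xGrk-/- over WT was higher, that is nearer to 0 or above it, with LPS than without. Among the core genes it was higher by 2.05 for Mki67, 2.02 for Top2a, 1.08 for Cdk1, 1.65 for Plk1, 1.27 for Aurkb, 1.36 for Birc5, 1.36 for Cdc20, 1.51 for Cenpa and 1.77 for Foxm1. LPS also lowered these genes in WT cells, except Cenpa, and the LPS-stimulated values rest on fewer reads. For Ckap2 and Nek2, among the 37, the LPS-stimulated reads were too few to be tested on their own. The part of the read numbers in the interaction was not tested.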

How the results depend on the processing

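The fall of 57 genes in unstimulated 3xGrk-/- cells stood at 51 to 57 genes under every alternative. The other counts moved. For 3xGrk-/- against WT with LPS, the 27 lower genes became 11 with DESeq2, 11 with at least 10 counts in every library and 15 with a coefficient of variation of 0.2, and 15 to 26 when 1 library was left out, 15 without the second LPS-stimulated WT library. With at least 10 counts in every library, which leaves fewer genes to test, the genes lowered by LPS were 25 (56 otherwise) in WT and 21 (47 otherwise) in 3xGrk-/- cells, and the interaction was called for 24 genes (37 otherwise). A coefficient of variation of 0.2 gave 18. With a log2 fold change of at least 1, 1 gene (Cenpa) rose with LPS in 3xGrk-/- cells instead of 2. Leaving out 1 library gave 57 to 57, 56 to 56, 38 to 48 and 25 to 37 genes in the other 4 comparisons. The replicate block gave 57, 28, 56, 46 and 36 genes, and the replicate numbers share nothing but the number.

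The values that follow changed sign under an alternative, none of them called in the tests reported, and the cause was not tested. For 3xGrk-/- over WT with LPS, Tacc3 was 0.007 with DESeq2, 0.0016 with RLE factors, 0.0198 without a filter, 0.0024 with at least 10 counts, 0.0004 with a coefficient of variation of 0.2, and -0.1894 to 0.1946 with 1 library left out. Spc25 was 0.0043 with DESeq2 and -0.4623 to 0.5051 with 1 library left out, and Espl1 0.0108 without a filter and -0.5447 to 0.357. With 1 library left out, Smc2 ranged from -0.2246 to 0.146, Hmmr from -0.8255 to 0.2162, Kif20b from -0.4267 to 0.0418 and Bub1b from -0.2702 to 0.0073. The response of Cenpa to LPS in WT ranged from -0.2055 to 0.0728 and that of Ndc80 in 3xGrk-/- cells from -0.8186 to 0.4917. The interaction of Ccnb1 was -0.0204 with DESeq2 and -0.1115 to 0.134 with 1 library left out. With 1 library left out, the interaction of Bub1 (1.06) ranged from -0.7623, without the first LPS-stimulated 3xGrk-/- library, to 1.9134, without the second. That of Ccna2 (0.42) ranged from -1.0611 to 1.2043 for the same libraries, and that of Ube2c (0.63) from -0.2489, without the second, to 1.1214, without the first. Those of Kif23 (-0.1297 to 0.546) and Kif4 (-0.5388 to 0.6564) changed sign too. The LPS-stimulated values rest on few reads, with a median of at most 12 reads per gene in each 3xGrk-/- library.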
